A study of Homo sapiens with 8 samples.

Results

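The 2 mature products of the miR-9 hairpins, hsa-miR-9-5p and hsa-miR-9-3p, were followed through all 8 small RNA libraries of the series. They were chosen by name, as 2 of the 1780 miRNA entries in the deposited count matrix, because of their high level in DLD1 cells and their higher level in DLD1 spheroids than in DLD1 monolayers. Levels between the lines and the DLD1 culture contrast are therefore given as a description with no test. The HT29 culture contrast and the ratio of the arms were not used in that choice and were tested. Between the lines, that ratio still rests on counts whose levels led to the choice.

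DLD1 and HT29 are established human colorectal adenocarcinoma (CRC) cell lines. Each was grown for 6 days either as a monolayer (2D) or as multicellular spheroids (MCS), and each line and culture had 2 libraries described as biological replicates. DLD1 cells were kept in RPMI, with 35000 cells seeded per flask for 2D and 7000 cells plated per well for MCS. HT29 cells were kept in DMEM, with 100000 cells seeded per flask for 2D and 3500 cells plated per well for MCS. Spheroids formed in round-bottom wells coated with agarose, a model that holds tumour cells alone, with no stroma or immune cells. Both lines received the same serum and antibiotics. DLD1 libraries were made with version 3 of the NEXTflex small RNA kit and HT29 libraries with version 2, so cell line, medium and kit cannot be told apart. The libraries held 10495634 to 26211524 miRNA counts. Of the epithelial marker miRNAs, 6 of 6 were listed, with a sum of 89302 to 165878 counts per 1000000 miRNA counts of the library (CPM) in DLD1 and 64706 to 239857 CPM in HT29. Of 7 miRNAs typical of blood, endothelium, liver, muscle and neurons, 6 were listed and summed to 80.6 to 104 CPM in DLD1 and 38.8 to 96.5 CPM in HT29. Most of the DLD1 sum was the endothelial miR-126-3p. It had 85.9 and 79.0 CPM in DLD1 2D, 78.9 and 94.0 CPM in DLD1 MCS and 2.19 to 15.3 CPM in HT29. Another of them, the muscle miRNA miR-1-3p, was higher in DLD1 MCS as miR-9 was, with 1.39 and 1.30 CPM in DLD1 2D and 10.0 and 8.21 CPM in DLD1 MCS. The part of either in the miR-9 values was not tested. In HT29 miR-1-3p had 50.0 and 22.1 CPM in 2D and 90.9 and 28.5 CPM in MCS.

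MicroRNAs are short RNAs that are released from hairpin precursors and guide Argonaute proteins to complementary sites in mRNAs, which are then repressed. Base pairing of the seed, bases 2 to 8 of the mature miRNA, largely decides which mRNAs are bound. miR-9 is known best from the developing brain, where it acts on neural progenitors, and both of its arms can be loaded and act. In carcinoma cells miR-9-5p has been studied as a repressor of CDH1, the mRNA of the adhesion protein E-cadherin. Neither mRNAs nor proteins were measured in these libraries.

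The mature sequences are shown because the arms carry different seeds and so would address different mRNAs. They are from RefSeq, 5′ to 3′, with the seed in capitals:

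hsa-miR-9-5p: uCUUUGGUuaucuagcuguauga

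hsa-miR-9-3p: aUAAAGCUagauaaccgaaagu

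Of 2370 mature human miRNA names in the RefSeq table, no other shared either seed. The nearest other mature sequences lay 8 edits from miR-9-5p and 7 edits from miR-9-3p. That table matched 1557 of the 1780 entries of the matrix.

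The genes MIR9-1, MIR9-2 and MIR9-3 encode miR-9. Their hairpins are shown because the mature arms are the same in each and the loops and flanks are not. In the RefSeq hairpin sequences below, capitals mark the 5p and then the 3p arm:

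MIR9-1: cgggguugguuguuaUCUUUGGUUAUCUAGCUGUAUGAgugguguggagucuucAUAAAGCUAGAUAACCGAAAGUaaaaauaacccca

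MIR9-2: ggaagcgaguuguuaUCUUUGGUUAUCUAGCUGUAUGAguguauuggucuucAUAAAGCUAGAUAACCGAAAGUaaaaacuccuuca

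MIR9-3: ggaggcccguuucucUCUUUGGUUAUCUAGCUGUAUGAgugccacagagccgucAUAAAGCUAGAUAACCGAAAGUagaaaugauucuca

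An exact search of GRCh37, the genome named in the submitters' processing notes as hg19, placed each hairpin at a single site. MIR9-1 is at chr1:156390133-156390221 on the minus strand, within the long non-coding RNA gene MIR9-1HG of the GENCODE annotation, where both arms are intronic. MIR9-2 is at chr5:87962671-87962757 on the minus strand, wholly within an exon of the long non-coding RNA gene LINC00461. MIR9-3 is at chr15:89911248-89911337 on the plus strand, partly in an exon of MIR9-3HG. Each mature arm had 3 exact matches in the genome, 1 per hairpin and none elsewhere. A mature count therefore sums over the 3 genes, and which of them was transcribed in DLD1 cannot be told from it. The predicted folds were alike, with minimum free energies of -41.0, -39.0 and -41.7 kcal/mol, and in each fold 21 of 23 bases of the 5p arm and 20 of 22 bases of the 3p arm were paired.

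Both arms were above 10 CPM in every DLD1 library, higher in MCS than in 2D, and near the detection limit in HT29 cells. In DLD1 2D miR-9-5p had 989 and 1411 counts, or 62.5 and 55.4 CPM. In DLD1 MCS it had 5949 and 8004 counts, or 329 and 391 CPM. In HT29 2D it had 12 and 21 counts, or 1.14 and 0.801 CPM. In HT29 MCS it had 10 and 21 counts, or 0.931 and 1.22 CPM. The lowest DLD1 MCS library lay 5.26-fold above the highest DLD1 2D library, whereas the HT29 2D and MCS libraries overlapped. Ordered by group mean, miR-9-5p was at 360 ± 43.8 CPM in DLD1 MCS, 59.0 ± 5.06 CPM in DLD1 2D, 1.08 ± 0.206 CPM in HT29 MCS and 0.972 ± 0.242 CPM in HT29 2D (SD, n = 2 each), and only the last pair of neighbours lay within their spread. By rank among all miRNAs of a library, miR-9-5p stood at positions 204 and 214 in DLD1 2D and moved to positions 107 and 98 in DLD1 MCS. In HT29 its rank was between 446 and 628.

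The 3p arm followed the same order at a lower level. In DLD1 2D miR-9-3p had 238 and 617 counts, or 15.0 and 24.2 CPM. In DLD1 MCS it had 1977 and 2871 counts, or 109 and 140 CPM. The lowest MCS library lay 4.52-fold above the highest 2D library, and the means were 19.6 ± 6.48 CPM in 2D and 125 ± 21.8 CPM in MCS (SD, n = 2 each). Its rank was 315 and 279 in 2D and 162 and 143 in MCS. In HT29, 2D replicate 1 and MCS replicate 1 held 0 counts of miR-9-3p, which allows up to 0.286 and 0.279 CPM by counting error. HT29 2D replicate 2 held 4 counts (0.153 CPM) and MCS replicate 2 held 1 count (0.0582 CPM), so no fold between HT29 cultures was formed for this arm.

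**Figure D1:**
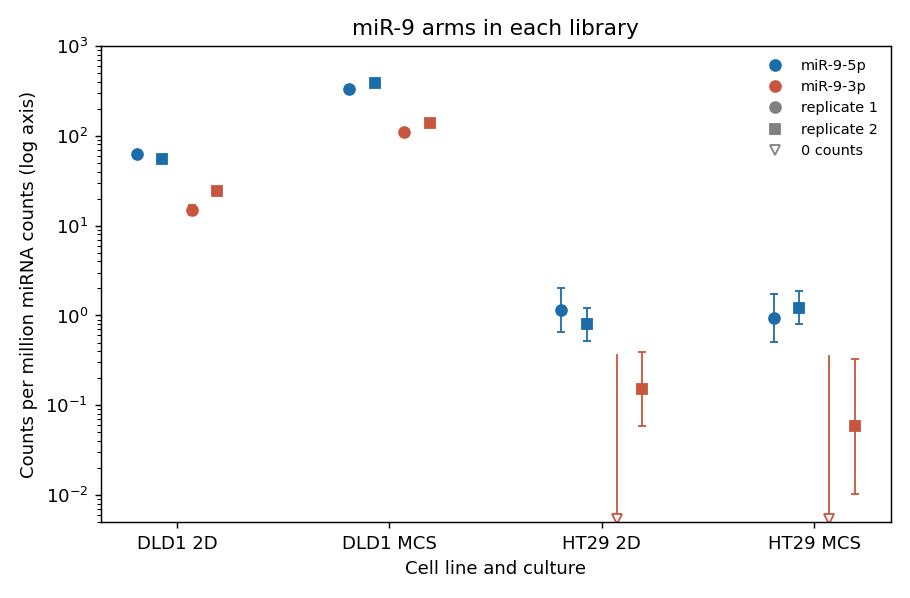
Level of each miR-9 arm in CPM (log axis) in each of the 8 libraries, by cell line and culture, with 95% Wilson counting intervals; open triangles mark libraries with 0 counts, drawn at the foot of the axis. Both arms are higher in the DLD1 MCS than in the DLD1 2D libraries, and the HT29 libraries lie at or below 1.22 CPM.

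Between the lines, mean miR-9-5p CPM was 60.6-fold higher in DLD1 than in HT29 in 2D and 335-fold higher in MCS. The lowest DLD1 library still lay 48.4-fold above the highest HT29 library in 2D, and 269-fold above it in MCS. For miR-9-3p, pooled counts gave 20.7 CPM in DLD1 2D against 0.109 CPM in HT29 2D, a ratio of 190 with an exact 95% counting interval of 73.9 to 699. In MCS the pooled values were 125.8 CPM and 0.0358 CPM, the latter from 1 count, so that the ratio of 3514 has a counting interval of 630 to 138813. The different kits of the lines stand beside all of these ratios, and their part was not tested.

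Within DLD1, the edgeR quasi-likelihood fit with upper quartile scaling gave miR-9-5p a log2 fold change of MCS against 2D of 3.02 ± 0.26 (SE, 8.12-fold). The same fit gave miR-9-3p 3.09 ± 0.29 (SE, 8.52-fold). The plain ratios of mean CPM were smaller, at 6.11-fold for miR-9-5p and 6.36-fold for miR-9-3p. Upper quartile scaling brought the second MCS library up, so that miR-9-5p was at 56.4 and 47.4 normalised CPM in 2D and at 318 and 524 normalised CPM in MCS, and the MCS replicates lay farther apart than in plain CPM. The scaling also sets the centre of the fold changes, since the median over all 346 miRNAs tested in DLD1 ranged from -0.22 to 0.23 on the log2 scale over 6 scalings and tools. Relative to that median, miR-9-5p was higher by 2.75 to 2.79 and miR-9-3p by 2.80 to 2.86. In each of the 6, miR-9-3p had the 5th and miR-9-5p the 6th largest log2 fold change of the 346. In the main scaling they were flanked by hsa-miR-7641 at 3.20 above and hsa-miR-95-3p at 2.96 below. In that fit 143 of 346 miRNAs (41.3%) were called (1.5-fold or more in either direction, adjusted p under 0.05 by the Benjamini-Hochberg method), of which 103 (29.8%) were up-regulated and 40 (11.6%) down-regulated in MCS. Since miR-9 was chosen on this contrast, nothing is read from its own place among these calls. The direction of the other calls moved with the scaling, from 103 up and 40 down to 60 up and 83 down with library totals alone and 49 up and 93 down with the upper quartile taken over the tested miRNAs.

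The HT29 culture contrast was free of that choice. Neither arm reached a mean of 10 CPM over the HT29 libraries, the minimum used here after the study's own limit on low levels, and only miR-9-5p reached 10 counts in sum over the 4 HT29 libraries. Among the 979 miRNAs that did, the quasi-likelihood test gave miR-9-5p a log2 fold change of -0.23 ± 0.90 (SE) for MCS against 2D, with an edgeR adjusted p of 0.998 (0.819 to 0.999 over the alternatives run). The interval of 2 standard errors ran from -2.03 to 1.57, or from 0.245-fold to 2.97-fold. Counting error on the 33 counts in 2D and 31 counts in MCS would give a standard error of 0.36. Most of the 0.90 thus came from the spread between scaled HT29 libraries over miRNAs (biological coefficient of variation 0.519). Scaling widened that spread for miR-9-5p. In 2D, 1.14 and 0.801 CPM became 2.19 and 0.483 normalised CPM. In MCS, 0.931 and 1.22 CPM became 1.26 and 0.786 normalised CPM. Because the DLD1 contrast chose the miRNA, the DLD1 value is not set against the HT29 interval. The difference between the lines was not tested. For the HT29 cultures, an exact 2-sided permutation test on CPM of miR-9-5p gave p = 0.667, where 2 libraries against 2 cannot go below 0.333. No miRNA was called in HT29 by edgeR (0 of 979, 0%; 47, or 4.8%, at an unadjusted p under 0.05), and DESeq2 called 10.

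The balance of the arms was compared next, as the share of miR-9-3p among the counts of both arms. In DLD1 2D the share was 19.4% (95% Wilson interval 17.3 to 21.7) in replicate 1 and 30.4% (28.5 to 32.5) in replicate 2. In DLD1 MCS it was 24.9% (24.0 to 25.9) and 26.4% (25.6 to 27.2). The MCS libraries fell between the 2D libraries, and the 2D libraries differed from each other by more than counting error. The means were 24.9 ± 7.80% in 2D and 25.7 ± 1.03% in MCS (SD, n = 2 each), a difference of 0.761 percentage points with an exact permutation p of 1. With 1 library left out the difference ran from -4.75 to 6.27 percentage points and turned negative without 2D replicate 1, so its sign rested on single libraries.

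In HT29 2D the 3p arm gave 0 of 12 counts (0%, Wilson interval 0 to 24.2) in replicate 1 and 4 of 25 (16%, 6.40 to 34.7) in replicate 2. In HT29 MCS it gave 0 of 10 (0%, 0 to 27.8) in replicate 1 and 1 of 22 (4.55%, 0.807 to 21.8) in replicate 2. The mean share was 5.14 ± 7.55% in HT29 and 25.3 ± 4.56% in DLD1 (SD, n = 4 each). By point value every HT29 library lay below every DLD1 library. The upper Wilson limit of each HT29 library exceeded the lowest DLD1 share, 19.4% in 2D replicate 1. Counting error on single libraries therefore leaves that full separation unresolved. The difference of -20.2 percentage points had an exact permutation p of 0.0286, the smallest that 4 against 4 can give. The share is formed from the arm counts whose levels led to the choice of miR-9, so this p is not free of that choice. The test also took the 2D and MCS libraries of a line together. Within 2D alone the difference was -16.9 and within MCS alone -23.4 percentage points, each with an exact permutation p of 0.333, the smallest that 2 against 2 can give. Leaving out any 1 library gave -23.8 to -18.4 percentage points with an exact permutation p of 0.0571, again the smallest possible. Pooled over libraries, 5703 of 22056 counts were 3p in DLD1 (25.9%, 25.3 to 26.4) and 5 of 69 in HT29 (7.25%, 3.13 to 15.9). Small RNA kits differ in ligation preference, and kit and line cannot be told apart here.

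**Figure D2:**
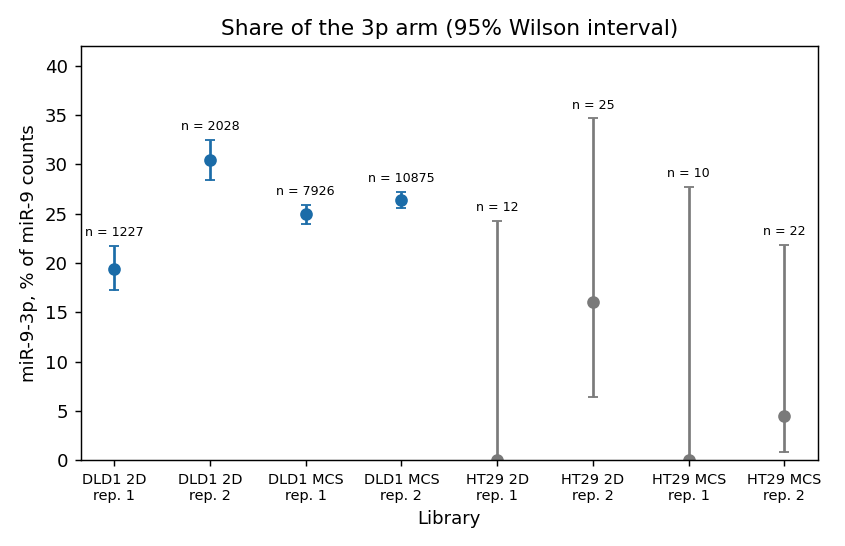
Share of miR-9-3p among the counts of both miR-9 arms (%) in each library, with 95% Wilson intervals and the number of miR-9 counts (n) above each point. The 4 DLD1 libraries lie between 19.4% and 30.4%, and the HT29 libraries between 0% and 16% with wide intervals.

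How far the arms of a hairpin moved together was read from the 84 hairpin names with both arms tested in DLD1. The arms of miR-9 differed by 0.07 on the log2 scale, against a median absolute difference of 0.43 over the 84, and 7 hairpins had arms that lay closer. That closeness rested on both 2D libraries: the 3p arm lay 0.53 above the 5p arm without 2D replicate 2 and differed from it by -0.33 without 2D replicate 1, against medians of 0.46 and 0.46 over the hairpins. In the main scaling both arms were called in 20 of the 84, with 15 up, 4 down and 1 in opposite directions. Of all 346 single miRNAs tested, 41.3% were called. The count does not leave out miR-9, and the direction of calls moved with the scaling. Ordered by the smaller log2 fold change of the arms, miR-9 stood first at 3.02, followed by miR-10b at 2.23, and the median over the 84 was 0.11. That order uses the contrast on which miR-9 was chosen and is a description. The less abundant arm took a median of 7.23% of a hairpin's counts in DLD1, compared with 25.3% for miR-9, and 24 of the 84 had a larger share. Between cultures the share shifted by a median of 1.26 percentage points over the 84 and by 0.761 for miR-9, and 33 hairpins shifted less. The second arm of miR-9 thus took more of its counts than the median minor arm did. Its small shift was the mean of 2D libraries on either side of the MCS libraries, and was -4.75 percentage points without 2D replicate 1 and 6.27 without 2D replicate 2.

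**Figure D3:**
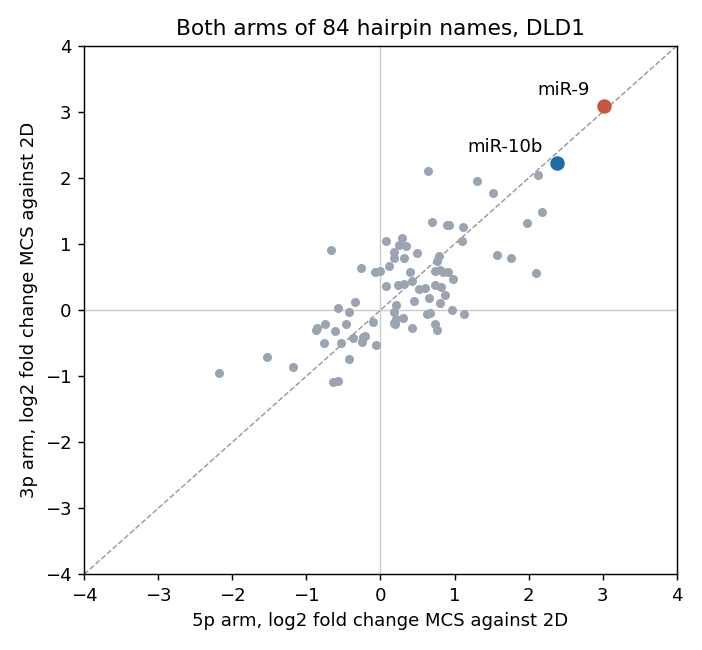
Fitted log2 fold change of MCS against 2D in DLD1 for the 5p arm (horizontal axis) and the 3p arm (vertical axis) of the 84 hairpin names with both arms tested, each point 1 hairpin name, with equal change on the dashed line. miR-9 lies at 3.02 and 3.09, farthest along the line, and miR-10b is next.

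The miRNAs with the most similar pattern were ranked by Pearson correlation of log2(normalised CPM + 1) over the 8 libraries, among 395 miRNAs. Since the libraries of a line share line and kit, such a value mostly reflects the gap between the lines. The 2 miR-9 arms correlated with each other at r = 0.989 (n = 8). For miR-9-5p the 5 nearest others were miR-140-3p (r = 0.990), miR-361-3p (0.987), miR-193a-5p (0.984), miR-10b-3p (0.982) and miR-320c (0.977). For miR-9-3p they were miR-10b-3p (r = 0.998), miR-4708-3p (0.992), miR-95-3p (0.985), miR-361-3p (0.981) and miR-193a-5p (0.971). High values were common, with 22 miRNAs above 0.95 for miR-9-5p and 14 for miR-9-3p.

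The nearest miRNAs differed widely in level and in their change in DLD1. The ranking used the DLD1 2D and MCS libraries, so p-values of these miRNAs in that contrast are not free of it. miR-10b-3p, the minor arm of a hairpin in the HOXD cluster, had 4.17 and 8.20 CPM in DLD1 2D and 19.8 and 24.1 CPM in DLD1 MCS. In HT29 it was at most 0.116 CPM, so it shared with miR-9-3p both the gap between lines and the higher level in MCS. In DLD1 its log2 fold change was 2.23 (edgeR adjusted p = 1.54e-08). miR-95-3p had 13.8 and 21.4 CPM in DLD1 2D and 105 and 104 CPM in DLD1 MCS, close to the levels of miR-9-3p, and 0.667 to 3.84 CPM in HT29. miR-4708-3p had 7.34 and 10.8 CPM in DLD1 2D, 22.1 and 24.5 CPM in DLD1 MCS and at most 0.763 CPM in HT29. These 3 lay above their 2D levels in both DLD1 MCS libraries. miR-140-3p was far more abundant, at 2512 and 2424 CPM in DLD1 2D and 3831 and 3164 CPM in DLD1 MCS, and its log2 fold change of 0.87 (edgeR adjusted p = 0.00127) was well under that of miR-9. miR-320c was not called, with a log2 fold change of 0.47 (edgeR adjusted p = 0.193), so its likeness to miR-9-5p lay in the gap between lines.

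**Figure D4:**
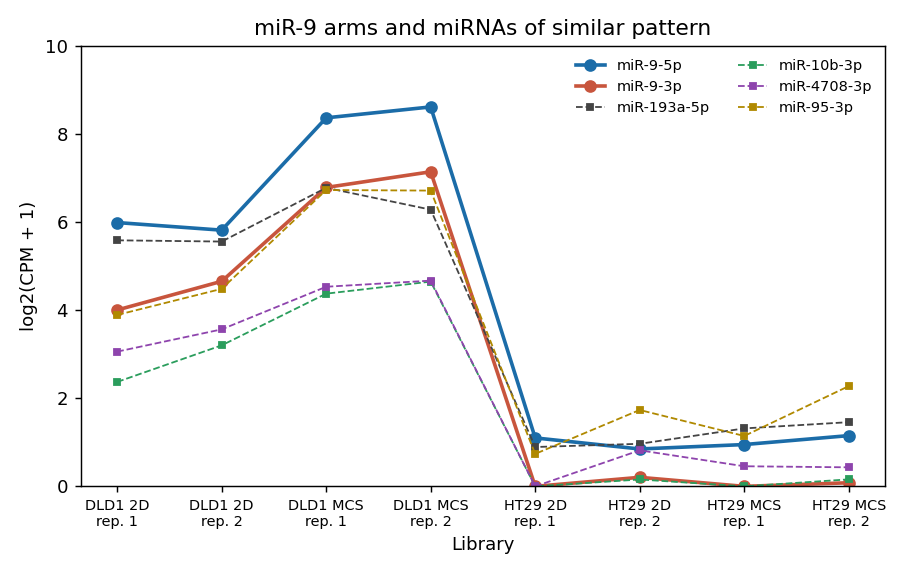
log2(CPM + 1) of the miR-9 arms (solid) and of miR-193a-5p, miR-10b-3p, miR-4708-3p and miR-95-3p (dashed) in the 8 libraries on the horizontal axis; lines only join the points of a miRNA. All 6 drawn are higher in the DLD1 MCS than in the DLD1 2D libraries and drop in HT29, where no point of the 6 exceeds 3.84 CPM. The dashed miRNAs are only a part of the nearest ones. Not drawn are miR-140-3p and miR-361-3p, which reached 798 and 55.8 CPM in HT29. Also not drawn is miR-320c, whose DLD1 2D (49.2 and 52.6 CPM) and MCS (57.8 and 50.7 CPM) libraries overlapped.

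Because miR-9 is best known from neural tissue, 22 other miRNAs with neural roles were listed, of which 18 were in the matrix. Only 8 reached a mean of 10 CPM in DLD1. Of these, 1 was up-regulated, 1 was down-regulated and 6 did not pass, with a median log2 fold change of 0.09 against 0.23 for all 346 tested. The share called, 2 of 8, stands against 41.3% of all tested. The member that rose was miR-95-3p (2.96 ± 0.30, SE, edgeR adjusted p = 1.01e-19), also among the miRNAs most similar to miR-9-3p. The list was chosen with earlier results of these data known, so its calls are not free of them. The member that fell was miR-7-5p, an miRNA of neurons and endocrine cells that is known to repress EGFR signalling. It had 1885 and 1811 CPM in DLD1 2D and 419 and 478 CPM in DLD1 MCS. It decreased by 1.64 on the log2 scale (edgeR adjusted p = 9.73e-11). Both calls held in 6 of 6 scalings and tools. The most abundant of the rest were miR-128-3p (0.41, edgeR adjusted p = 0.149) and miR-330-3p (-0.14, edgeR adjusted p = 0.625). miR-124-3p, the classic neuronal miRNA, reached at most 0.153 CPM in any library. Levels between the lines differed within the list. miR-128-3p had 1999 to 2266 CPM in DLD1 and 135 to 289 CPM in HT29. miR-7-5p was higher in HT29, at 7063 to 11327 CPM. What these levels mean for miR-9 was not tested. In HT29, 4 of the list were tested and 0 were called by edgeR (0 of all 301, 0%, with 12, or 3.99%, at an unadjusted p under 0.05; DESeq2 called 12 of the 301).

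The epithelial-mesenchymal transition is the programme in which miR-9-5p is studied as a repressor of E-cadherin. The second list held 20 miRNAs linked to it and was also chosen with earlier results of these data known. Of these, 19 were in the matrix and 17 were tested in DLD1. There 9 were up-regulated, 2 were down-regulated and 6 did not pass, and the median log2 fold change was 0.62 against 0.23 for all tested. The 11 of 17 called stand against 41.3% of all tested. Without DLD1 2D replicate 2 fewer were called, both in the list and over all tested miRNAs.

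Members of the miR-200 family, which maintain the epithelial state by repressing ZEB1 and ZEB2, were higher in DLD1 MCS alongside miR-9. miR-200b-3p had 32386 and 36595 CPM in DLD1 2D and 61921 and 63301 CPM in DLD1 MCS, with a log2 fold change of 1.26 (edgeR adjusted p = 0.000539). miR-200a-3p rose by 1.28, miR-200c-3p by 1.04 and miR-141-3p by 0.98 in the same fit, whereas miR-429 had a log2 fold change of 0.56 and did not pass (edgeR adjusted p = 0.0566). The calls of miR-200a-3p and miR-200b-3p held in 6 of 6 scalings and tools, and those of miR-200c-3p and miR-141-3p in 5 of 6. They were less firm to the loss of a 2D library. Without 2D replicate 2, miR-200a-3p kept its call (edgeR adjusted p = 0.0376), while miR-200b-3p (0.185), miR-200c-3p (0.314) and miR-141-3p (0.267) lost theirs. Without 2D replicate 1, miR-200b-3p (edgeR adjusted p = 0.0666) and miR-200c-3p (0.208) lost theirs.

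miR-10b-5p, studied as a promoter of invasion, had 388 and 381 CPM in DLD1 2D and 1568 and 1507 CPM in DLD1 MCS, a log2 fold change of 2.39 (edgeR adjusted p = 3.96e-20). miR-203a-3p, a miRNA of epithelial differentiation, rose by 2.06 and miR-101-3p, which represses the methyltransferase EZH2, rose by 1.41. These 3 were called in 6 of 6 scalings and tools and with any 1 library left out. miR-34a-5p, a p53 target, rose by 0.88 and was called in 4 of 6, but not without 2D replicate 2 (edgeR adjusted p = 0.116). miR-107 rose by 0.62 and was called in 1 of 6, and in none of the fits with 1 library left out. On the other side, miR-30a-5p decreased by 2.50, from 467 and 436 CPM in DLD1 2D to 61.7 and 60.1 CPM in DLD1 MCS, and miR-222-3p decreased by 0.95. Both were called in 6 of 6, and miR-30a-5p with any 1 library left out, whereas miR-222-3p lost its call without 2D replicate 2 (edgeR adjusted p = 0.0877).

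The most abundant members that did not pass were miR-21-5p, a common oncogenic miRNA, and miR-92a-3p of the miR-17-92 cluster. miR-21-5p had 286868 and 251864 CPM in DLD1 2D and 120083 and 150669 CPM in DLD1 MCS. Its log2 fold change was -0.58 (edgeR adjusted p = 0.219), but it was called down in 4 of 6 scalings and tools. Since it alone held so much of each library, the CPM of every other miRNA moves with it, and its part in the DLD1 ratios was not tested. miR-92a-3p had a log2 fold change of 0.16 (edgeR adjusted p = 0.661). In HT29, 18 of the 20 were tested and 0 were called by edgeR, with a median of -0.09 against 0.03 for all 301 tested. With the replicate number as a block edgeR called 47 of the 301, among them 3 of this list, miR-155-5p (log2 fold change 1.11, adjusted p = 0.0128), miR-205-5p (-1.38, adjusted p = 0.000799) and miR-30a-5p (0.97, adjusted p = 0.0277). Whether the replicate numbers pair the HT29 libraries is not stated in the labels, and replicate differences in 2D and MCS correlated at r = 0.79 over the 301 miRNAs.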

How the data were processed

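Small RNA sequencing data of 8 libraries were analysed. The deposited values were raw counts of reads per mature miRNA, which the authors obtained by trimming, aligning and counting. The submitters' processing notes name CASAVA 1.8.3, cutadapt 1.11, Bowtie2 2.1.0, edgeR 3.4.2 and hg19. How reads with several matches were counted is not given in the sources used here. The matrix and the per-library tables held the same values (12572 compared, 0 differed). A total of 15 entries naming no miRNA were left out (0.00988% of HT29 2D replicate 2, 0 counts elsewhere).

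Groups followed the sample titles. Counts were scaled with upper quartile factors per cell line and tested with the edgeR 4.0.16 quasi-likelihood test (R 4.3.3), MCS against 2D within a line, for miRNAs whose mean in that line reached 10 CPM; miR-9 in HT29 was tested among miRNAs with at least 10 counts in sum. A call needed a fold change of 1.5 and a Benjamini-Hochberg adjusted p under 0.05. Single values were compared with exact permutation tests in scipy 1.17.1. CPM used the library total. Precision is counting error at 10495634 to 26211524 counts per library; intervals and floors (3 counts) cover that error only, and reads without molecular identifiers are not independent molecules. Alternatives were TMM, RLE, library totals, DESeq2 1.42.0, other filters, a fit of all libraries, the replicate number as a block and each library left out. The fits were also run on simulated counts drawn independently for each library, without shared replicate differences, and no result here rests on that run. Hairpins were folded with RNAfold 2.7.2. RefSeq names (GRCh38.p14 table) matched 1557 of 1780 entries.

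The miRNAs and lists were chosen with earlier results of these data known. Named were both arms, the 5 most similar miRNAs per arm, their neighbours in the order of DLD1 fold changes, called list members with at least 100 normalised CPM in a DLD1 group, the 2 most abundant others per list, and any miRNA of equal seed or list member called in HT29. miR-429, miR-124-3p, miR-126-3p, miR-1-3p, miR-155-5p, miR-205-5p, miR-1246 and miR-100-5p were added after their values were seen. Biological replicates are so described in the labels; what separated them is not stated, so p-values measure the spread between these libraries.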

Additional observations from a re-analysis of the deposited data

Results flagged for a closer look

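Among the miRNAs listed beside miR-9 and tested in both lines, a screen sought full separation of the cultures in opposite directions. It picked miR-30a-5p. With 2 libraries against 2, an exact permutation p cannot go below 0.333. The share of all miRNAs that separate in this way was not counted. In DLD1 both MCS libraries lay below both 2D libraries, at 59.5 and 80.5 against 421 and 374 normalised CPM (log2 fold change -2.50). In HT29 both MCS libraries lay above both 2D libraries, at 789 and 403 against 366 and 228 normalised CPM (log2 fold change 1.01, edgeR adjusted p = 0.977, or 0.97 and 0.0277 with the replicate number as a block). The difference between the lines was not tested.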

How the results depend on the processing

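The log2 fold changes of miR-9 in DLD1 kept their direction under every alternative run, with a range of 2.52 to 3.02 (miR-9-5p) or 2.61 to 3.09 (miR-9-3p), and of 2.56 to 3.17 or 2.55 to 3.31 with 1 library left out. In HT29 the value of miR-9-5p (-0.23) had no stable sign: it was 0.16 with library totals alone and -1.23 to 1.01 with 1 library left out, positive without 2D replicate 1 (1.01) or MCS replicate 2 (0.07), and no alternative called it. The DLD1 difference in 3p share ranged from -4.75 to 6.27 percentage points with 1 library left out, negative without 2D replicate 1. The share difference between lines, whose p is not free of the choice of miR-9, kept its sign within 2D (-16.9) and within MCS (-23.4). It also did so with 1 library left out (-23.8 to -18.4). The exact permutation p was then 0.333 or 0.0571, the smallest that those designs can give. On the log2 ratio of arms it was 2.21 (exact permutation p = 0.0286).

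Replicate numbers were checked for pairing by correlating the replicate differences of 2D and MCS over miRNAs (r = 0.32 in DLD1, 0.79 in HT29). With 2 pairs per line and no stated shared day or batch, they were taken as numbers only. The replicate block gave miR-9-5p 2.98 in DLD1 and 0.064 in HT29, and miR-9-3p 3.07 in DLD1; it called 47 miRNAs in HT29, among them 3 of the epithelial-mesenchymal list (miR-155-5p, miR-205-5p and miR-30a-5p).

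The DLD1 calls numbered 143, against 30 in a fit of all 8 libraries and 92 to 124 with 1 library left out (92 without 2D replicate 2); the epithelial-mesenchymal count was 5 to 11, with 5 without 2D replicate 2. In HT29, 0 calls became 12 with DESeq2, 15 with no filter and 0 to 2 with 1 library left out (1, miR-1246, without 2D replicate 1; 2, miR-1246 and miR-100-5p, without 2D replicate 2). The share of DLD1 calls that were up was 72.0%, and 55.1% with TMM, 64.0% with RLE, 52.2% with DESeq2, 42% with library totals and 34.5% with the upper quartile of tested miRNAs, the last chosen after seeing the data; these moved the median of all fold changes by -0.21, -0.12, -0.24, -0.37 and -0.46. Of the 5 miRNAs most similar to miR-9-5p, 2 were kept with library totals and 1 with Spearman's rho; of those for miR-9-3p, 3 with TMM, 3 with library totals and 1 with Spearman's rho. The causes of these shifts were not tested. Depth limits the miR-9-3p level and the arm share in HT29, which rest on 69 counts of both arms in 4 libraries. The interval of the miR-9-5p change there is mostly spread between scaled libraries (SE 0.90, against 0.36 from counting error).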
